A study of Homo sapiens with 9 samples.

Results

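Genes of squamous differentiation and cornification were followed in the 9 arrays of the study: 47 genes, chosen by symbol, of 18417 that have a probe set of their own on the array. The list was chosen because KRT5 and KRT14, the keratins of basal squamous cells, are among the brightest genes here, with mean log2 signals of 12.64 and 12.43 (percentiles 99.97 and 99.95 of these genes). Each gene is represented by its brightest probe set. The levels that led to this choice are given as a description.

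By the labels, the RNA came from SK-BR-3, a luminal-like human breast cancer cell line. SK-BR-3 is known for amplified ERBB2. The RNA was hybridised to the Affymetrix Human Gene 1.0 ST array. In 3 arrays the label is stable overexpression of TFPIα, the secreted form of tissue factor pathway inhibitor, in 3 it is TFPIβ, the form anchored on the cell surface, and in 3 it is empty vector. All cells carry a pcDNA3.1/V5/His-pTOPO vector and went through drug selection, by puromycin in the labels and by neomycin in the methods, and each line is 1 stable pool, so the 3 arrays of a group are separate RNA isolations from 1 pool and p-values measure only the spread between isolations. Groups were compared to find out what TFPI changes in these cells.

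The TFPI probe set is no check of the labels. According to the study's own account, the transfected cDNA holds the coding sequence alone, and array probes in the untranslated parts of the TFPI transcript cannot read it. The same account states that TFPI was raised in both TFPI lines with PLIER, an algorithm that drops weak probes. The paper also gives raised TFPI mRNA by qRT-PCR in both lines. The values here are RMA signals. The log2 signals were 5.66, 5.81 and 5.51 where the label is TFPIα, 5.55, 5.79 and 5.81 where it is TFPIβ and 5.81, 6.48 and 6.45 where it is empty vector. The log2 differences from empty vector were -0.59 and -0.53 (limma adjusted p = 0.335 and 1.00). Of 17 luminal markers, 12 passed the signal limit given below. ERBB2 lay between 5.63 and 6.24, with a mean of 5.88 at percentile 59.03 of the genes with a probe set. KRT5, a basal marker, lay between 12.40 and 12.83. The median signal per array was 5.52 to 5.85 for the 12 luminal markers and 7.74 to 9.06 for 10 basal markers. Levels of different probe sets do not measure relative amounts of RNA. Still, ERBB2, for which the line is known, was not among the brightest genes here, and the reason was not tested. TFPIα, TFPIβ and empty vector below are the labels of the arrays.

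Squamous epithelia renew from basal cells that express KRT5 and KRT14. Cells that leave the basal layer switch to other keratins, load envelope precursors such as involucrin, small proline-rich proteins and plakins under the membrane, and cross-link them with transglutaminases into the cornified envelope. Kallikreins, which are serine proteases, and their inhibitors control the shedding of the dead cells, cystatins inhibit cysteine proteases, lipoxygenases and lipid transporters seal the barrier, and GRHL3, ZNF750 and OVOL1 are transcription factors of the programme.

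Many genes of the terminal programme stayed dim, a somewhat larger share than of all genes and one close to that of all probe sets. A probe set that reached a log2 signal of 5 in no array was treated as low, the limit that the methods set; no detection call per probe set was available. By this limit 23 of the 47 genes were measurable (48.9%), against 11232 of all 18417 genes (61.0%), and 24 were not. Of all probe sets, which are not 1 per gene, 52.5% passed. With the same limit the paper kept more transcripts than the number of probe sets that passed here, and the reason was not tested. Of the 23, 13 never reached 6, and 10 did so in at least 1 array. The share of all genes that reached 6 was not computed. The genes just under the limit were SPRR1A, MAL and ABCA12, with highest signals of 4.97, 4.92 and 4.85. Those just over it were KRT13, KRT4 and KLK8, with 5.01, 5.07 and 5.10.

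**Figure D1:**
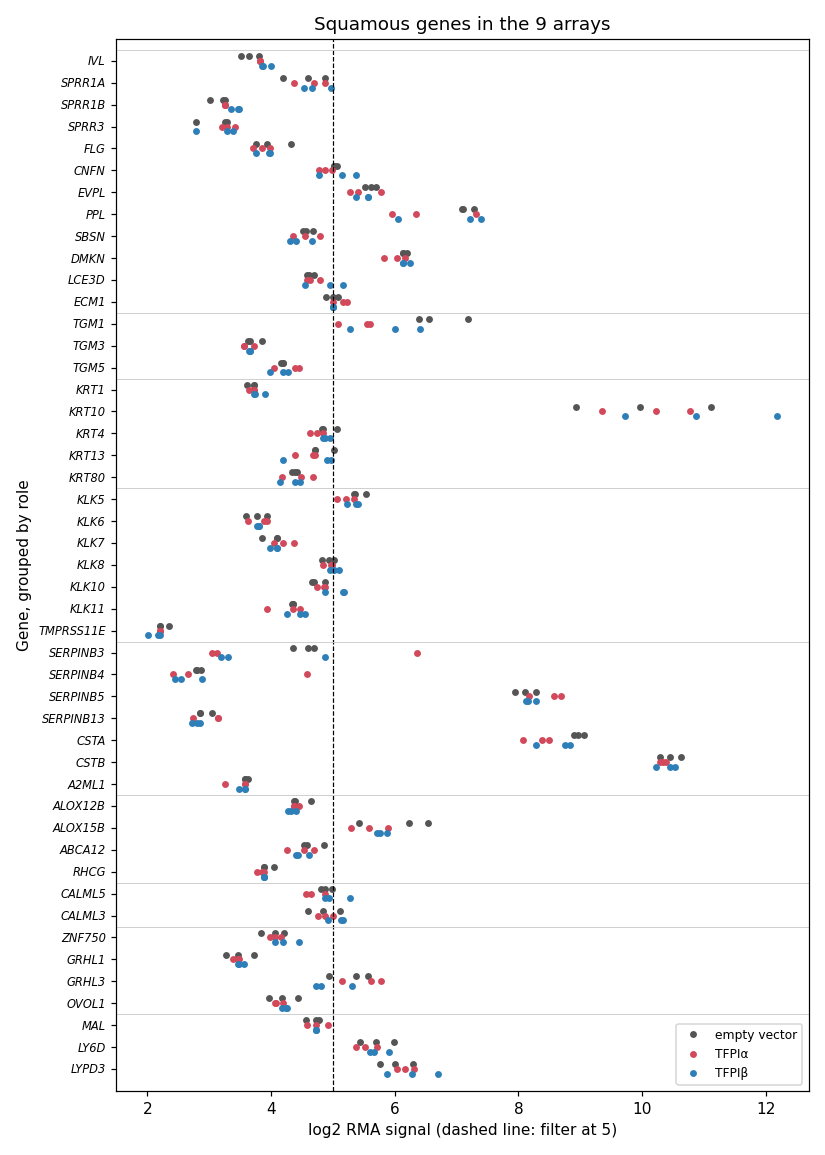
Log2 RMA signal (horizontal axis) of the 47 squamous genes (vertical axis, grouped by role) in each of the 9 arrays, 1 point per array, coloured by the group of the label. Of the 47 genes, 24 have every point left of the dashed line at 5, while KRT10, SERPINB3 and TGM1 spread over 3.24, 3.31 and 2.10 log2 units.

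Among the 12 envelope proteins 6 passed the limit. IVL, involucrin, had log2 signals of 3.82 in all 3 TFPIα arrays, 3.86, 3.87 and 4.0 in the TFPIβ arrays and 3.64, 3.52 and 3.81 in the empty vector arrays. FLG, filaggrin, which bundles keratin in the granular layer, had 3.71, 3.98 and 3.85 with TFPIα, 3.75, 3.96 and 3.98 with TFPIβ and 3.76, 3.93 and 4.33 with empty vector. Both genes were thus under the limit in every array of every group. Of the small proline-rich envelope proteins, SPRR1A had 4.37, 4.87 and 4.69 with TFPIα, 4.53, 4.97 and 4.66 with TFPIβ and 4.19, 4.60 and 4.87 with empty vector, and its groups overlapped. SPRR1B had 3.26 in all 3 TFPIα arrays, 3.48, 3.35 and 3.47 with TFPIβ and 3.23, 3.01 and 3.26 with empty vector. SPRR3 and SBSN, also under the limit, reached 3.42 and 4.79. The 6 envelope genes that passed were CNFN, EVPL, PPL, DMKN, LCE3D and ECM1, and of these the plakins EVPL and PPL and the secreted DMKN exceeded the limit in all arrays.

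The keratins of differentiated layers did not go together. KRT1, the type II partner of KRT10 in the suprabasal epidermis, had log2 signals of 3.73, 3.64 and 3.73 with TFPIα, 3.73, 3.91 and 3.74 with TFPIβ and 3.61, 3.73 and 3.73 with empty vector. KRT10 lay between 8.93 and 12.18. KRT4 and KRT13, the pair of internal stratified epithelia, reached at most 5.07 and 5.01, and KRT80 at most 4.68. So 1 keratin of the differentiated layers had a strong signal while its usual partner was under the limit.

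Of the factors, GRHL3 lay between 4.72 and 5.77, and GRHL1 and OVOL1 had highest signals of 3.72 and 4.43. ZNF750, a factor of late differentiation, had 3.98, 4.16 and 4.07 with TFPIα, 4.19, 4.45 and 4.07 with TFPIβ and 3.83, 4.07 and 4.21 with empty vector. Of the factors, GRHL3 was thus the one past the limit. Of the 6 kallikreins and TMPRSS11E, 3 passed, and the highest signal in this group was 5.53, that of KLK5 in the third empty vector array. KLK6, KLK7 and KLK11 reached 3.94, 4.37 and 4.55, and TMPRSS11E, with both of its probe sets under the limit, reached 2.35 on the brighter one. The 3 transglutaminases differed: TGM1, the membrane-bound enzyme of keratinocytes, reached 7.19, while TGM3 and TGM5 reached 3.86 and 4.45. The protease inhibitors CSTA, CSTB and SERPINB5 were well over the limit in all arrays, with means over the 9 arrays of 8.64 ± 0.34, 10.40 ± 0.13 and 8.26 ± 0.24 (SD, n = 9). Of the remaining genes, LYPD3, a surface protein related to the urokinase receptor, lay between 5.76 and 6.70 and LY6D, a surface antigen of keratinocytes, between 5.37 and 5.98. Of the lipid barrier genes, ALOX15B passed, while ALOX12B, ABCA12 and the transporter RHCG reached 4.65, 4.85 and 4.04. The calmodulin-like CALML5 and CALML3 reached 5.28 and 5.16, and the protease inhibitor A2ML1 reached 3.62. A signal is to be compared between arrays for 1 probe set, not between probe sets.

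The 250 bases before the start site of a gene, taken from RefSeq, were available for 33 of the 47 genes. Shown are IVL, as the dim envelope gene, SERPINB5, as a well-expressed one, and KRT10, the keratin with the strong signal; capitals mark matches to TGANTCA, the site of AP-1 factors, and to TATAAA. The windows are chr1:152908296-152908545 on the plus strand, chr18:63476708-63476957 on the plus strand and chr17:40822615-40822864 on the minus strand (GRCh38.p14).
IVL: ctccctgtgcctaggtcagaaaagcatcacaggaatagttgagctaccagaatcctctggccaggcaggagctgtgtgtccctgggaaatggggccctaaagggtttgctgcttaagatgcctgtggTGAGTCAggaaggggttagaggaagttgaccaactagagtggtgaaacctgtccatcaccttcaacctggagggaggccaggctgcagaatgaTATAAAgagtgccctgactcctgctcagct
SERPINB5: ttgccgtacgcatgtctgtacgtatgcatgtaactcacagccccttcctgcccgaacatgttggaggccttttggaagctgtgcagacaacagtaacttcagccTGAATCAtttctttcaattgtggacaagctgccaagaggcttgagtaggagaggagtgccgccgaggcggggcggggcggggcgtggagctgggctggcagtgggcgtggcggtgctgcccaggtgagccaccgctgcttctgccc
KRT10: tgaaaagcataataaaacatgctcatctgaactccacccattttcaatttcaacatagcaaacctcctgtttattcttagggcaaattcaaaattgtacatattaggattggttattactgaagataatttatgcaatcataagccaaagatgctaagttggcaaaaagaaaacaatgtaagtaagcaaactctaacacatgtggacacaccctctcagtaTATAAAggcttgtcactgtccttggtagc

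TGANTCA was found in 9 of the 33 windows, those of IVL, FLG, SPRR1A, SPRR1B, SPRR3, SBSN, ECM1, SERPINB5 and SERPINB13, and in 6.60% of all 27305 windows. Of these 9 genes, 7 stayed under the signal limit in every array, ECM1 reached 5.23, and SERPINB5 was well over the limit. Of all 33 windows, 19 belong to genes under the limit and 14 to genes past it. TATAAA was found in 9 of 33 windows and in 11.1% of all. AACCNGTT, the grainyhead site, was found in 1 of the 33, that of TGM5, and in 1.48% of all. Both strands were searched, the motifs did not overlap in the windows shown, and a match is a description of the letters only.

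The groups were compared with limma over all 17482 probe sets that passed the limit, and a call needed a fold change of 2 or more together with an adjusted p (Benjamini-Hochberg) under 0.05. None of the 23 measurable squamous genes was called in any comparison. The background was as low. Of all probe sets, 0.00572% were called between the arrays labelled TFPIα and empty vector. The share was 0% between TFPIβ and empty vector and 0% between TFPIβ and TFPIα. At 0.10, the false discovery rate in the methods, 1 and 0 transcripts were called for TFPIα and TFPIβ against empty vector. The paper reported far more for both isoforms from these arrays, with KRT4 among the most raised with TFPIβ and KRT80 raised with both. Here KRT4 had a log2 fold change of -0.02 with TFPIβ, and KRT80 stayed under the limit, with group means of 4.34 to 4.45. The cause was not tested. At an unadjusted p under 0.05, 3, 2 and 2 of the 23 genes differed (13.0%, 8.70% and 8.70%), against 14.2%, 4.72% and 8.63% of all probe sets. In the first comparison 1 was higher and 2 were lower (8.59% and 5.58% of all), in the second 1 and 1 (2.49% and 2.23%), and in the third 1 and 1 (3.94% and 4.70%). With the replicate number as a block the counts were 3, 4 and 2, against 20.3%, 7.16% and 15.4% of all. The groups did not overlap for 3 of the 23 genes in the first comparison (13.0%, against 23.3% of all). These were TGM1, CSTA and CNFN, all lower with TFPIα. In the second it was CSTA (4.35%, against 7.16%). In the third it was KRT4, higher with TFPIβ (4.35%, against 13.3%). The TFPIα arrays of CNFN lay under the limit, at 4.87, 4.77 and 4.99, so the limit itself favoured a lower TFPIα value. KRT4 passed only through the second empty vector array, at 5.07, and its compared groups met at 4.84. Neither gene supports a direction. The median log2 fold change of the 23 was -0.15, 0.01 and 0.17, where that of all probe sets was 0.00 in each comparison. These shares and medians cover only genes that passed the limit and are given as a description. Both comparisons with empty vector use the same 3 control arrays.

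**Figure D2:**
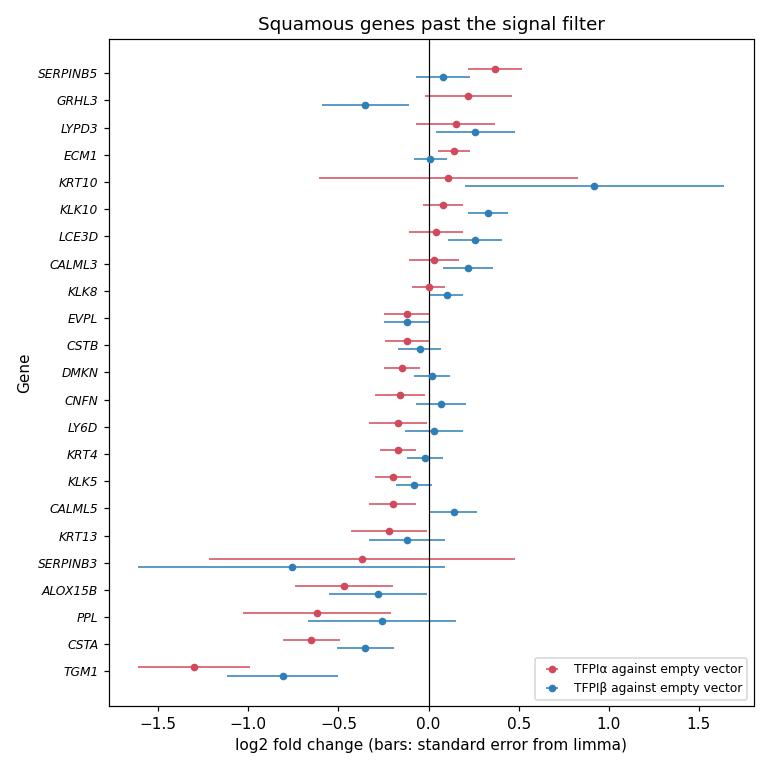
Log2 fold change against the empty vector arrays (horizontal axis) of the 23 measurable squamous genes (vertical axis), for the arrays labelled TFPIα and TFPIβ. Points are limma estimates and bars 1 standard error; TGM1 lies farthest left, at -1.30 and -0.81, and the bars of KRT10 and SERPINB3 are the widest.

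TGM1, which cross-links the cornified envelope, was the squamous gene with the lowest p between the arrays labelled TFPIα and empty vector. Its log2 signals were 5.60, 5.09 and 5.55 with the TFPIα label, 6.01, 6.40 and 5.28 with TFPIβ and 6.39, 7.19 and 6.56 with empty vector. All 3 TFPIα arrays lay below all 3 empty vector arrays, and the TFPIβ arrays overlapped both. The log2 fold change of TFPIα against empty vector was -1.30 (standard error 0.31), which is 2.46-fold lower, with an unadjusted p of 0.00298 and a limma adjusted p = 0.335. For TFPIβ it was -0.81 (0.31), with a limma adjusted p = 1.00. Within replicate numbers the TFPIα difference was -0.79, -2.10 and -1.0. In bulk RNA, fewer cells that express a gene and less RNA per cell cannot be told apart.

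CSTA, cystatin A, an inhibitor of cysteine proteases that is also an envelope component, had the same order. It had log2 signals of 8.49, 8.08 and 8.38 with the TFPIα label, 8.75, 8.83 and 8.28 with TFPIβ and 9.06, 8.97 and 8.89 with empty vector. Both TFPI-labelled groups lay below the empty vector arrays without overlap. The log2 fold changes were -0.65 and -0.35 (standard error 0.16 each), with limma adjusted p = 0.335 and 1.00. Without the third TFPIβ array the TFPIβ value was -0.18. CSTB, its widely expressed relative, lay between 10.22 and 10.63 with overlapping groups and log2 fold changes of -0.12 and -0.05.

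SERPINB5, maspin, had an estimate of the other sign between these groups. It had log2 signals of 8.17, 8.58 and 8.69 with the TFPIα label and 8.11, 8.28 and 7.95 with empty vector, so the ranges overlapped. The log2 fold change was 0.37 (standard error 0.15, limma adjusted p = 0.346), and within replicate numbers it was 0.06, 0.30 and 0.75. The TFPIβ arrays, at 8.12, 8.29 and 8.16, gave a log2 fold change of 0.08.

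The remaining genes with an unadjusted p under 0.05 were close to the signal limit, where background limits a fold change. KLK10, a serine protease of the upper layers, had 5.18, 5.17 and 4.87 with the TFPIβ label, 4.87, 4.75 and 4.85 with TFPIα and 4.70, 4.67 and 4.87 with empty vector (log2 fold change of TFPIβ against empty vector 0.33, standard error 0.11, limma adjusted p = 1.00). CALML5, a calcium-binding protein of late differentiation, had 5.28, 4.94 and 4.87 with TFPIβ, 4.56, 4.87 and 4.64 with TFPIα and 4.87, 4.99 and 4.80 with empty vector (TFPIβ against TFPIα 0.34, standard error 0.13, limma adjusted p = 0.532). Both genes passed the limit only through TFPIβ arrays, so the limit itself favoured a higher TFPIβ value and their estimates support no direction. GRHL3 had 4.72, 4.81 and 5.31 with TFPIβ, 5.14, 5.77 and 5.62 with TFPIα and 4.93, 5.38 and 5.57 with empty vector. The TFPIβ arrays of GRHL3 were the lowest within each replicate number, and the log2 fold change against TFPIα was -0.57 (standard error 0.24, limma adjusted p = 0.532).

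**Figure D3:**
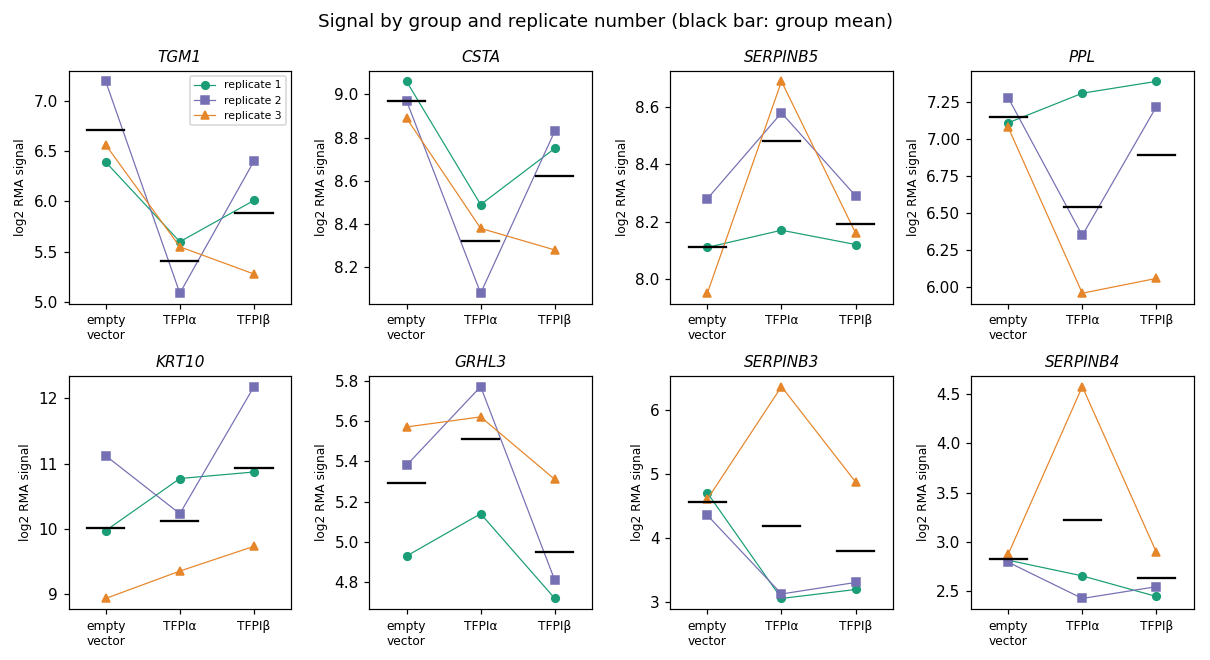
Log2 RMA signal (vertical axes, each on its own scale and not from 0) of 8 squamous genes by the group of the label (horizontal axes). Points of the same replicate number are joined by a line and black bars are group means; TGM1 and CSTA lie lower in the TFPIα arrays, KRT10 is lowest in the third array of each group, and SERPINB3 and SERPINB4 peak in 1 array, at 6.36 and 4.58.

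The spread of KRT10 went in part with the replicate number, for which KRT10 was not called. Its log2 signals were 9.97, 11.12 and 8.93 with the empty vector label, 10.77, 10.23 and 9.35 with TFPIα and 10.87, 12.18 and 9.73 with TFPIβ. The third array was the lowest of each group, while the highest was the second with empty vector and TFPIβ and the first with TFPIα. The mean was 10.53, 11.18 and 9.34 over the arrays numbered 1, 2 and 3. A limma F test of the replicate number beside the group gave KRT10 the smallest p among the squamous genes (0.00427, limma adjusted p = 0.213). The TFPIβ arrays were above empty vector by 0.90, 1.05 and 0.80 within the numbers. Without the number in the model the log2 fold change of 0.92 had a standard error of 0.72 (limma adjusted p = 1.00), and with the number as a block the limma adjusted p was 0.670. For TFPIα the differences within numbers were 0.80, -0.90 and 0.42.

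Over the 23 genes, 6 had an unadjusted p under 0.05 for the replicate number (26.1%), against 16.0% of all probe sets, and none was called, against 0% of all. The 6 were KRT10, GRHL3, LY6D, SERPINB3, KRT13 and PPL. PPL, periplakin, had 7.11, 7.28 and 7.08 with empty vector, 7.31, 6.35 and 5.96 with TFPIα and 7.39, 7.22 and 6.06 with TFPIβ. It was low in the third TFPIα and TFPIβ arrays and in the second TFPIα array, and even over the empty vector arrays. Its log2 fold changes were -0.62 and -0.26 (standard error 0.41 each, limma adjusted p = 0.485 and 1.00). ALOX15B, a lipoxygenase, spread most within empty vector, with 5.42, 6.53 and 6.23, against 5.29, 5.58 and 5.89 with TFPIα and 5.76, 5.88 and 5.71 with TFPIβ, so the groups overlapped. LYPD3 had 6.0, 6.30 and 5.76 with empty vector, 6.31, 6.04 and 6.17 with TFPIα and 6.70, 6.28 and 5.87 with TFPIβ, and overlapped as well.

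SERPINB3 and SERPINB4, the squamous cell carcinoma antigens, are neighbouring serpin genes on chromosome 18 with near-identical sequences, so their probe sets may share signal. The 250 bases before their start sites, chr18:63661894-63662143 on the minus strand and chr18:63644257-63644506 on the minus strand (GRCh38.p14), are shown because both genes had their highest signal in the same array; they are identical at 247 of 250 positions, and capitals mark the 3 that differ. Neither window holds any of the searched motifs.
SERPINB3: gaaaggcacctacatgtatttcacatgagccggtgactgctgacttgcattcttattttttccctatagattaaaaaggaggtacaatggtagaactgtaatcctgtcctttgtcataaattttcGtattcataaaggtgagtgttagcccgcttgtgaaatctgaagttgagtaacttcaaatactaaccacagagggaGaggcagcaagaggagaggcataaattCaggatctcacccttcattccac
SERPINB4: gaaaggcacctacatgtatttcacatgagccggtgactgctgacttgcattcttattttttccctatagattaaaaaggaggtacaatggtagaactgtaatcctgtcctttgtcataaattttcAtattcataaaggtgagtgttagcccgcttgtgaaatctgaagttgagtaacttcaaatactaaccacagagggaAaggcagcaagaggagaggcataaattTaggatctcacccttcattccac

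SERPINB3 had log2 signals of 4.70, 4.35 and 4.60 in the empty vector arrays, 3.05, 3.12 and 6.36 in those labelled TFPIα and 3.19, 3.30 and 4.87 in those labelled TFPIβ. The third TFPIα array held the highest value of all 9 and the first and second the lowest. The empty vector arrays lay close together between these extremes. SERPINB4 had 2.81, 2.79 and 2.87, then 2.65, 2.42 and 4.58, and 2.44, 2.54 and 2.89 in the same order, with its highest value in the same array. The SERPINB3 log2 fold changes were -0.37 and -0.76 (standard error 0.85 each, limma adjusted p = 0.860 and 1.00); without the third TFPIα array, the only one in which SERPINB3 passed the limit, the first was -1.46. SERPINB4 stayed under the limit and was not tested, and SERPINB13, a serpin of the same cluster, lay between 2.73 and 3.15.

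Proliferation genes were read beside TGM1 and CSTA. The median log2 signal of 20 such genes was 8.51, 8.71 and 8.62 in the TFPIα arrays, 7.83, 6.18 and 8.72 in the TFPIβ arrays and 7.83, 6.67 and 7.79 in the empty vector arrays. The estimates of all 20 were higher with the TFPIα label than with empty vector, with a median log2 fold change of 1.15. Of the 20, 10 were higher at an unadjusted p under 0.05, against 8.59% of all probe sets, and none was called. The arrays fell into separate bands of 4, 3 and 2 arrays, so no correlation was computed. The 4 arrays of the highest band, all TFPIα arrays and the third TFPIβ array, had the 4 lowest signals of both genes: 5.09 to 5.60 against 6.01 to 7.19 for TGM1, and 8.08 to 8.49 against 8.75 to 9.06 for CSTA. For KRT10, 2 of these 4 arrays were among the 4 lowest, and the 2 arrays of the lowest band held its highest signals, 12.18 and 11.12. CASP14, a further squamous gene described below, also had its 4 lowest signals in the highest band (3.73 to 4.50 against 4.67 to 6.79). TGM1, CSTA and CASP14 were named for differences that involve the TFPIα arrays, all of which lie in the highest band. Their low signals in this band were thus fixed in part by the choice of genes. No share over other genes was computed. The part of proliferation in these differences was not tested.

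**Figure D4:**
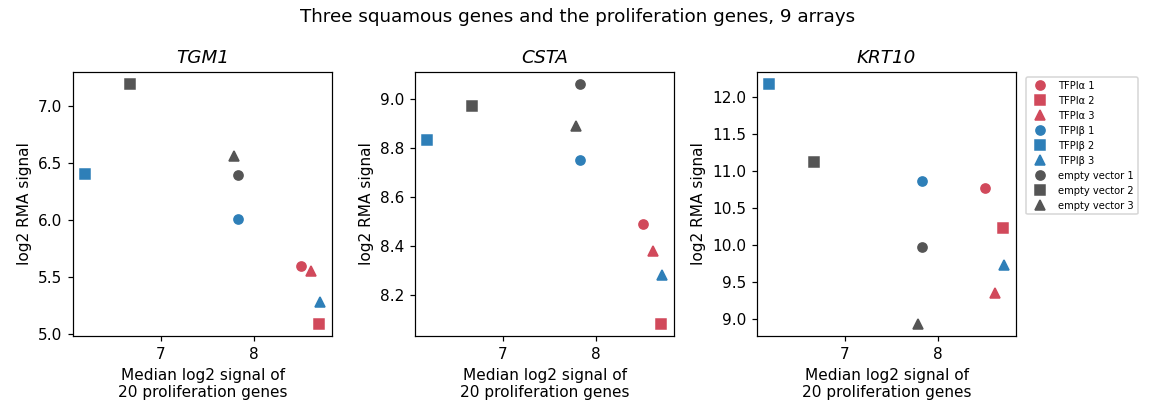
Log2 RMA signal of TGM1, CSTA and KRT10 (vertical axes) against the median log2 signal of 20 proliferation genes (horizontal axes), 1 point per array, coloured by the group of the label and shaped by replicate number. The 4 arrays at 8.51 to 8.72 hold the lowest TGM1 and CSTA signals, while KRT10 is highest, at 12.18, in the array with the lowest proliferation median, 6.18.

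Markers of other cells were also read. The 10 basal epithelial markers all lay below 0 in the TFPIα comparison, with a median log2 fold change of -0.35 and none called, and their median signal was 7.88 to 8.38 with TFPIα and 8.32 to 9.06 with empty vector. Of 10 fibroblast markers, 5 passed the limit, with median signals of 5.53 to 6.73 over the arrays; COL1A2, COL3A1 and PDGFRA were under it. With the TFPIα label 4 of the 5 lay below empty vector, with a median log2 fold change of -0.62. Of the 5, 1 was lower at an unadjusted p under 0.05, against 5.58% of all probe sets, and none was called. Of 9 leukocyte markers 2 passed, CD14 and CD68, and PTPRC stayed at or under 2.28. Their part in the squamous differences was not tested.

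The wider squamous programme was read from a list of 151 further genes, of which 134 have a probe set of their own and 57 passed the limit. None was called in any comparison. With the TFPIα label 45 of the 57 lay below empty vector, with a median log2 fold change of -0.10. The share of all probe sets below 0 was not computed. At an unadjusted p under 0.05, 4 of the 57 were lower and 1 higher, against 5.58% and 8.59% of all probe sets. UGCG, which makes glucosylceramide for the lipid barrier, had 6.95, 7.39 and 7.49 with TFPIα, 7.13, 6.76 and 7.24 with TFPIβ and 8.23, 8.15 and 8.26 with empty vector. Both TFPI-labelled groups lay below all empty vector arrays, with log2 fold changes of -0.94 and -1.17 (standard error 0.17 each, limma adjusted p = 0.289 and 0.663). CLCA2, a chloride channel regulator, had a log2 fold change of -0.80 with TFPIα (standard error 0.26, limma adjusted p = 0.335), NIPAL4 had -0.32 and ABHD5, a lipase cofactor, -0.45. With TFPIβ, KLK14 had 0.18 and DSC2, a desmosomal cadherin, 0.29, and CLDN1, a tight junction claudin, had -1.53 with TFPIβ (0.59, limma adjusted p = 1.00). SERPINB8, a serpin, had 6.68, 6.85 and 7.14 with TFPIα, 6.45, 5.84 and 6.57 with TFPIβ and 6.65, 6.35 and 6.17 with empty vector. Its TFPIα arrays lay above all arrays of both other groups, with log2 fold changes of 0.50 for TFPIα against empty vector and -0.60 for TFPIβ against TFPIα (standard error 0.22 each, limma adjusted p = 0.352 and 0.532). Between TFPIβ and TFPIα, JAG2, a Notch ligand, had a log2 fold change of 0.30 and LCE1D, a late envelope protein, 0.25, with limma adjusted p = 0.532 for each. CASP14, the caspase of cornification, had 6.20, 6.79 and 3.75 with TFPIβ, 4.50, 3.85 and 3.73 with TFPIα and 4.82, 5.90 and 4.67 with empty vector. The third TFPIβ array stood apart from the first and second, as it did for TGM1, and the log2 fold change against TFPIα was 1.55 (0.72, limma adjusted p = 0.532).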

How the data were processed

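The authors scanned the arrays, imported them into the Partek Genomics Suite and applied RMA; what was deposited is a log2 signal for each of 33297 probe sets on 9 arrays, unfiltered. The labels and methods name no log base, so base 2 was taken from the size of the values; software versions are not given in the sources used here. Median signals per array lay between 4.78 and 4.88. Precision is limited by having 3 arrays in a group.

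Probe sets were named through GEO's platform annotation, keeping those with 1 symbol and, per gene, the brightest. After the filter at a highest signal of 5, 17482 probe sets were fitted with limma 3.58.1 in R 4.3.3, with all 3 groups together. The replicate number was tested with a moderated F test beside the group. The scripts were tested on simulated data. Promoter windows came from RefSeq (GRCh38.p14), 1 per gene symbol. Figures were drawn with matplotlib 3.10.9.

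The genes and lists were chosen with earlier results of these data known. Values are given in every array for genes with an unadjusted p under 0.05 in a comparison, for the 8 with the widest range and for hallmark genes (IVL, KRT1, KRT10, FLG, TGM1, SPRR1A, SPRR1B, ZNF750 and GRHL3); of the further squamous genes at most 4 per comparison, those with the smallest p, are named.

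Each label carries a replicate number from 1 to 3. Between groups, same-numbered arrays had correlations of their deviations from the group means of 0.137 to 0.594 over 9 pairs. Over the other 18 pairs the correlations were -0.512 to 0.266. Same-numbered arrays thus tended to deviate alike, but the ranges overlap, and the pairs are not independent because deviations cancel out within a group. The labels and methods name no pairing. The main fit leaves the number out. The alternatives were the number as a block, a limit of 0.10 on the adjusted p, the one-way model of the methods, which does not moderate variances, the compared groups alone, no filter, a filter at 6, centred arrays, a trended and robust prior, only probe sets with 1 symbol, the mean over the probe sets of a gene, and each array left out in turn.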

Additional observations from a re-analysis of the deposited data

How the results depend on the processing

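No squamous gene was called in any of the 3 comparisons, or for the replicate number, under any alternative run, leaving out single arrays included. Their lowest limma adjusted p over the alternatives was 0.130 for TFPIα against empty vector, 0.660 for TFPIβ against empty vector, 0.123 for TFPIβ against TFPIα and 0.0586 for the replicate number, the last without TFPIα replicate 2. Over all transcripts, the 1 call of TFPIα against empty vector became 0 with the replicate number as a block, in the one-way model, with only the compared groups, without a filter and with centred arrays, and 0 to 4 when single arrays were left out (4 without TFPIα replicate 3, and 0 without any other array than empty vector replicate 3); between TFPIβ and TFPIα the block gave 1 call in place of 0. The cause was not tested. With the block, 3, 4 and 2 of the 23 genes had an unadjusted p under 0.05, against 20.3%, 7.16% and 15.4% of all probe sets; KRT10 and GRHL3 were added for TFPIβ against empty vector. The median log2 fold change of the measured squamous genes in TFPIβ against empty vector was -0.16 in place of 0.01 with a filter at 6, which leaves 10 genes. Without a filter the medians in the 3 comparisons were -0.04, 0.01 and 0.08, in place of -0.15, 0.01 and 0.17.

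TGM1 and CSTA were lower with the TFPIα label under every alternative, with log2 fold changes of -1.46 to -1.06 and -0.74 to -0.54 when single arrays were left out. The directions that turned were those of genes with wide spreads: without single arrays SERPINB3 ranged from -1.46 to 0.19 and KRT10 from -0.43 to 0.67 in TFPIα against empty vector (SERPINB3 turned without TFPIα replicate 1 or 2, KRT10 without TFPIα replicate 1 or empty vector replicate 3), and PPL from -0.51 to 0.15 in TFPIβ against empty vector (without TFPIβ replicate 3). Without TFPIβ replicate 3, TGM1 and CSTA in TFPIβ against empty vector were -0.51 and -0.18, in place of -0.81 and -0.35. KRT10 in TFPIβ against empty vector ranged from 0.29 (without TFPIβ replicate 2) to 1.51.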
